A study of Drosophila melanogaster with 16 samples.

Results

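Pan-neuronal TFAM overexpression was compared directly with pan-neuronal ATF4 overexpression in the central nervous system (CNS) of Drosophila melanogaster larvae, using the 4 RNA sequencing libraries of each genotype by their labels, 8 of the 16 libraries of the series. No control library entered the comparison. The other 8 libraries hold the driver control and TFAM overexpression combined with ATF4 RNAi. TFAM overexpression was nsybGal4>UAS-TFAM3M and ATF4 overexpression was nsybGal4>UAS-ATF4-HA, so both genotypes carried nSyb-Gal4, a driver active in neurons. Each replicate pooled the whole CNS of 20 wandering larvae, late in the third instar and raised at 25°C, and the RNA of neurons, glia and neuroblasts was therefore measured together. In such a pool, fewer cells of a type and less RNA per cell cannot be told apart. The labels name no batch, and the protocol text given with the TFAM libraries does not list the ATF4 genotype. Genotype, strain background and any difference in preparation or sequencing date cannot be told apart in this design. Nothing says that the pools came from separate crosses, so p values measure the spread between pools.

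TFAM is an HMG box protein that packages mitochondrial DNA and takes part in its transcription, and in excess it represses mitochondrial gene expression and stresses the organelle. ATF4, the product of the Drosophila gene crc, is the transcription factor of the integrated stress response (ISR), in which kinases such as PEK and Gcn2 phosphorylate eIF2α, most translation slows, and ATF4 is made. The comparison asks where mitochondrial stress in neurons and the transcription factor thought to act downstream of it differ in the transcriptome.

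The genotypes were checked first at the genes they target. TFAM (FBgn0038805, chr3R:20575245-20577010, minus strand) stood at 401, 679, 558 and 528 CPM (the normalised read count, relative to the library total scaled by TMM) in the TFAM libraries, against 68.9, 88.5, 74.2 and 89.1 CPM where the label was ATF4 overexpression. The groups did not overlap, and TFAM was higher by 2.75 on the log2 scale, with a standard error (SE) of 0.17 and an edgeR adjusted p of 2.3e-05. The gene crc (FBgn0000370, chr2L:21310866-21319527, plus strand), which shares exon sequence with CG46314 on the same strand, stood at 219, 241, 171 and 186 CPM in the TFAM libraries, against 178, 187, 192 and 185 CPM in those labelled ATF4 overexpression. These groups overlapped: the log2 fold change was 0.12 (SE 0.11, edgeR adjusted p = 0.988). Control libraries averaged 203 CPM of crc on a scale set over all 16 libraries, on which the libraries labelled ATF4 overexpression averaged 184 CPM. Since the transcript counted for the ATF4 gene was not raised in them, these libraries are called ATF4-labelled from here on, and every direction below rests on their label.

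Total counts ran between 20946531 and 24778270 in the TFAM libraries and between 22861867 and 23941597 in the ATF4-labelled libraries. Neuronal markers were present in both genotypes, with elav at 927 and 1000 CPM and nSyb at 480 and 486 CPM in TFAM and ATF4-labelled libraries in that order. TFAM replicate 2 stood apart in the slope of expression on exon length, at -0.254 against 0.024 to 0.081 in the other TFAM libraries and -0.037 to 0.112 in the ATF4-labelled libraries. The first principal component, 35.6% of the variance, followed that slope, and the second, 29.1%, separated the genotypes. Counts of calls with and without this library are given below.

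Of 9423 genes tested, 133 were called (1.41%), the call needing a fold change of 1.2 or more and an edgeR adjusted p under 0.05. With a further minimum of 1 FPKM in either genotype, 111 genes were called. Of the 133 genes, TFAM overexpression was higher for 93 (0.987% of genes tested) and lower for 40 (0.424%). The median log2 fold change over all genes tested was 0.00. The 4 TFAM libraries lay wholly above or below the 4 ATF4-labelled libraries for all 133 called genes, and for 573 of all genes tested (6.08%), being above for 374 (3.97%) and below for 199 (2.11%). Called genes had lower levels than the rest, with a median of 7.88 CPM over the genes called higher and 4.55 CPM over those called lower, against 37.3 CPM over all genes tested. At least 10 CPM in either genotype was reached by 49 of the genes called higher and by 17 of those called lower. A fold change of at least 4 was reached by 25 and 17 genes, a larger part of the genes called lower than of those called higher, although the difference in shares was not tested. Counts moved with single libraries: 212 genes were called without TFAM replicate 2, 82 without ATF4-labelled replicate 3 and 70 without ATF4-labelled replicate 4. Of the 133 genes, 65 were called in all 8 fits that left out a library, and all 133 kept their sign in every fit tried.

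**Figure D1:**
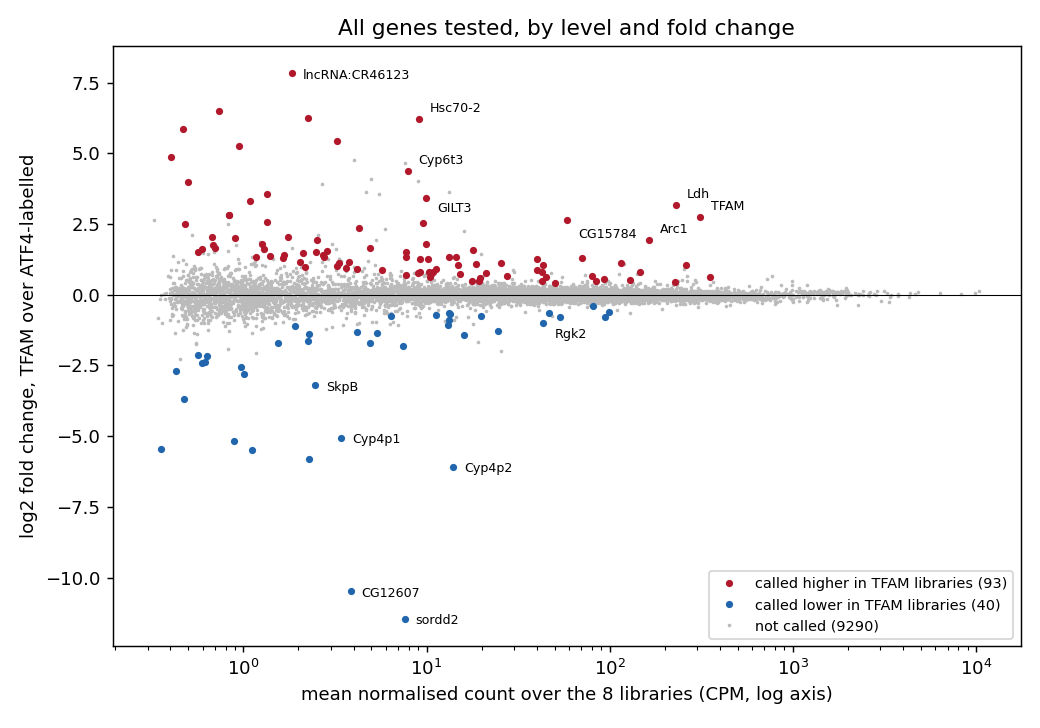
Log2 fold change (TFAM over ATF4-labelled) of the genes tested, against the mean CPM over the 8 libraries on a log axis; red and blue points are the 93 and 40 genes called higher and lower in TFAM libraries. The most abundant genes with large changes are TFAM and Ldh, while sordd2 and CG12607 have 0 counts in the TFAM libraries, so that their plotted fold changes depend on a prior count.

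Genes of sugar metabolism were among those that differed. Ldh, Hex-A and Tret1-1 were higher in TFAM overexpression, 3 of the 20 tested genes of glycolysis and L-2-hydroxyglutarate (L-2-HG) metabolism, and none of the 20 was called lower. The called share was 15% of this list, against 1.41% of all genes tested. Ldh and Tret1-1 are genes that the study itself singled out in the TFAM libraries, so their place here is not independent evidence. The median log2 fold change of the 20 was 0.37, against 0.00 over all genes tested, with 17 of the 20 positive and 11 at an unadjusted p under 0.05, a level reached by 729 of all genes tested (7.74%).

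Ldh (FBgn0001258, chr3L:6259105-6262694, minus strand) encodes lactate dehydrogenase, which turns pyruvate into lactate and can also make L-2-HG from α-ketoglutarate. It stood at 388, 513, 309 and 450 CPM in the TFAM libraries, against 38.0, 63.6, 37.7 and 45.4 CPM in the ATF4-labelled libraries. The lowest TFAM library was several times the highest ATF4-labelled library, and the log2 fold change was 3.16 (SE 0.21, edgeR adjusted p = 4.24e-05). Control libraries lay between the 2 genotypes, with a mean of 133 CPM and a range of 64.9 to 257 CPM on the 16-library scale, on which the TFAM and ATF4-labelled means were 412 and 45.8 CPM.

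Tret1-1, which carries trehalose, the circulating sugar of insects, stood at 96.4, 118, 76.4 and 110 CPM in the TFAM libraries, against 38.1, 48.1, 33.5 and 43.1 CPM in the ATF4-labelled libraries. The groups were well apart, with a log2 fold change of 1.29 (SE 0.15, edgeR adjusted p = 0.0019). Control libraries had 39.3 to 67.4 CPM on the 16-library scale, on which the TFAM and ATF4-labelled means were 99.4 and 40.4 CPM. Tret1-1 was also the 1 called gene among 14 glial markers, whose median log2 fold change was -0.03. Hex-A (FBgn0001186, chrX:9585675-9589813, plus strand) encodes the hexokinase that opens glycolysis. Its levels were 416, 319, 247 and 425 CPM in the TFAM libraries, against 170, 181, 161 and 167 CPM in the ATF4-labelled libraries. TFAM libraries were spread widely and ATF4-labelled libraries narrowly, without overlap, and the log2 fold change was 1.04 (SE 0.16, edgeR adjusted p = 0.0102). That call was lost without ATF4-labelled replicate 3 or 4, at adjusted p values of 0.0509 and 0.0518. Control libraries varied widely, with 108 to 278 CPM of Hex-A on the 16-library scale. The TFAM and ATF4-labelled means were 348 and 168 CPM on that scale.

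The enzymes between hexokinase and lactate dehydrogenase did not pass the edgeR test, although DESeq2 without a prior called 7 genes of this list, and edgeR with the exon length slope as a covariate called 5. Ald1 (aldolase) had a log2 fold change of 0.67 (edgeR adjusted p = 0.171), Pfk (phosphofructokinase) 0.52 (adjusted p = 0.143), Gapdh2 0.49 (adjusted p = 0.214) and Eno (enolase) 0.34 (adjusted p = 0.478). The 3 negative members were Gpdh1 at -0.11, Hex-C at -0.37 and D2hgdh at -0.05. Among 21 tested genes of the TCA cycle none was called, and their median log2 fold change was 0.09.

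**Figure D2:**
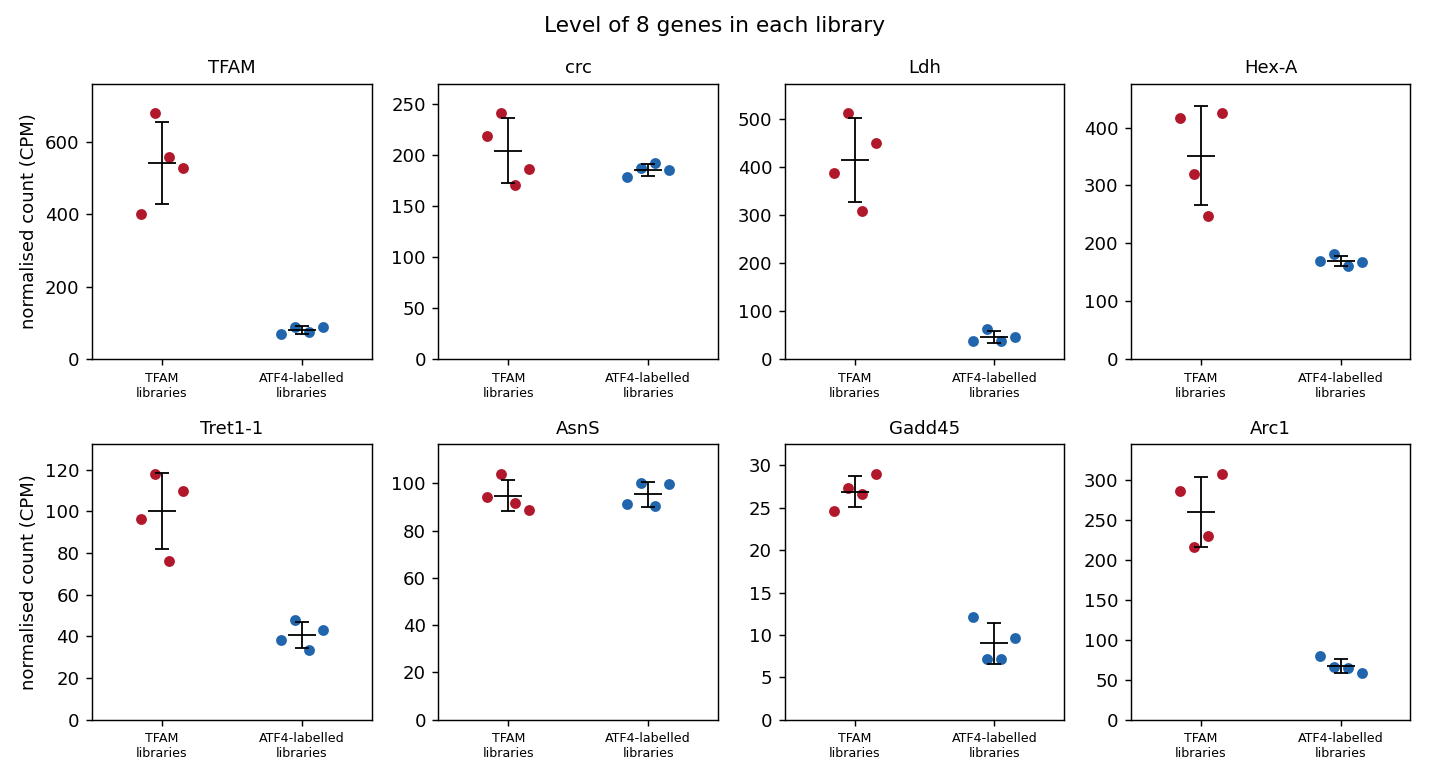
CPM of 8 genes in the 4 TFAM libraries (red, left) and the 4 ATF4-labelled libraries (blue, right) on linear axes from 0, with the mean and SD in black. The groups are apart for TFAM, Ldh, Hex-A, Tret1-1, Gadd45 and Arc1, and they overlap for crc and AsnS.

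Of 21 tested targets and regulators of the ISR, Ldh and Gadd45 were higher in TFAM overexpression and none was lower. The called share was 9.52%, against 1.41% of all genes tested. The median log2 fold change of the 21 was 0.12, with 7 at an unadjusted edgeR p under 0.05, against 7.74% of all genes tested. Gadd45, a stress-inducible gene of the family linked to DNA damage and growth arrest, stood at 24.6, 27.3, 26.6 and 29.0 CPM in the TFAM libraries, against 12.1, 7.13, 7.15 and 9.61 CPM in the ATF4-labelled libraries. Every TFAM library was above every ATF4-labelled one, and the log2 fold change was 1.56 (SE 0.17, edgeR adjusted p = 0.00136). Control libraries had 10.6 to 14.7 CPM on the 16-library scale, on which the TFAM and ATF4-labelled means were 26.6 and 8.92 CPM.

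The remaining ISR genes fell on both sides of 0. AsnS, asparagine synthetase, averaged 94.7 ± 6.68 CPM in TFAM libraries and 95.4 ± 5.38 CPM in ATF4-labelled libraries (SD, n = 4 each). Thor, the translation repressor 4E-BP, averaged 35.1 ± 7.16 CPM in TFAM libraries and 45.8 ± 3.63 CPM in ATF4-labelled libraries (SD, n = 4 each), with a difference on the log2 scale of -0.39 (SE 0.13, edgeR adjusted p = 0.335). Neither passed the test, although Thor was called without TFAM replicate 1, at -0.54 and an adjusted p of 0.0388. On the 16-library scale Thor averaged 34.8 CPM in TFAM libraries and 45.4 CPM in ATF4-labelled libraries, with 12.7 CPM in control libraries, whose highest value was 18.3 CPM. AsnS averaged 94.0 and 94.6 CPM in the TFAM and ATF4-labelled libraries on that scale, above the 65.6 to 78.7 CPM of the control libraries.

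Upstream of ATF4, the eIF2α kinase PEK stood at 102, 92.0, 104 and 108 CPM in the TFAM libraries, against 90.8, 85.7, 87.5 and 82.1 CPM in the ATF4-labelled libraries. The groups did not overlap, yet the difference was small and did not pass, at 0.22 on the log2 scale (SE 0.08, edgeR adjusted p = 0.408). Gcn2, the other eIF2α kinase named, averaged 76.3 ± 10.7 CPM in TFAM libraries and 76.3 ± 5.81 CPM in ATF4-labelled libraries (SD, n = 4 each). Xbp1, the transcription factor spliced by Ire1 in the unfolded protein response (UPR) of the endoplasmic reticulum, averaged 457 ± 110 CPM in TFAM libraries and 404 ± 30.9 CPM in ATF4-labelled libraries (SD, n = 4 each), and its highest value, 621 CPM, was in TFAM replicate 2. Among 23 tested genes of that UPR none was called; 20 were positive with a median log2 fold change of 0.08 and a highest value of 0.43, that of Sil1 (adjusted p = 0.0684). None of 32 aminoacyl-tRNA synthetases was called either, with a median of 0.13 and 28 positive.

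Afg3l2, which encodes a subunit of the protease of the inner mitochondrial membrane that faces the matrix, was the 1 called gene of 13 tested mitochondrial chaperones and proteases. It stood at 141, 161, 143 and 162 CPM in the TFAM libraries, against 102, 112, 102 and 106 CPM in the ATF4-labelled libraries. The groups were apart by a modest amount, a log2 fold change of 0.51 (SE 0.08, edgeR adjusted p = 0.0101), and the call was lost without ATF4-labelled replicate 3 (adjusted p = 0.0507) or 4 (adjusted p = 0.0519). The list had a median log2 fold change of 0.19, with Hsp60A at 0.44 (adjusted p = 0.191) and Hsc70-5 at 0.25 (adjusted p = 0.326). TFAM itself was the 1 called gene of 9 tested for mitochondrial DNA maintenance. No gene was called among 62 nuclear subunits of oxidative phosphorylation complexes (median 0.10) or 71 mitochondrial ribosomal proteins (median 0.10), and summed levels of both lists were highest in TFAM replicate 2. The 38 genes of the mitochondrial genome had 0 counts in every library, as did some genes that cells widely use, such as the proteasome subunit Prosalpha1, so a 0 in these files does not by itself show absence of expression.

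Other called genes act in mitochondria, a group put together after their values were seen and not tested as one. Nfs1, the cysteine desulfurase of iron-sulphur cluster assembly, averaged 50.0 ± 4.21 CPM in TFAM libraries and 35 ± 4.13 CPM in ATF4-labelled libraries (SD, n = 4 each). Fdx1, a ferredoxin, averaged 9.53 ± 1.21 and 5.85 ± 0.312 CPM, Alr, a sulphydryl oxidase of the intermembrane space, 23.8 ± 2.05 and 15.5 ± 2.22 CPM, and MME1, a magnesium exporter, 12.7 ± 1.64 and 8.23 ± 0.313 CPM, in TFAM and ATF4-labelled libraries in that order. All 4 were called higher in TFAM overexpression, with log2 fold changes of 0.50, 0.69, 0.60 and 0.62 and edgeR adjusted p values of 0.0435, 0.0312, 0.0468 and 0.0337. Each kept its call in at most 2 of the 8 fits that left out a library, and Alr shares exon sequence with parvin on the same strand.

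**Figure D3:**
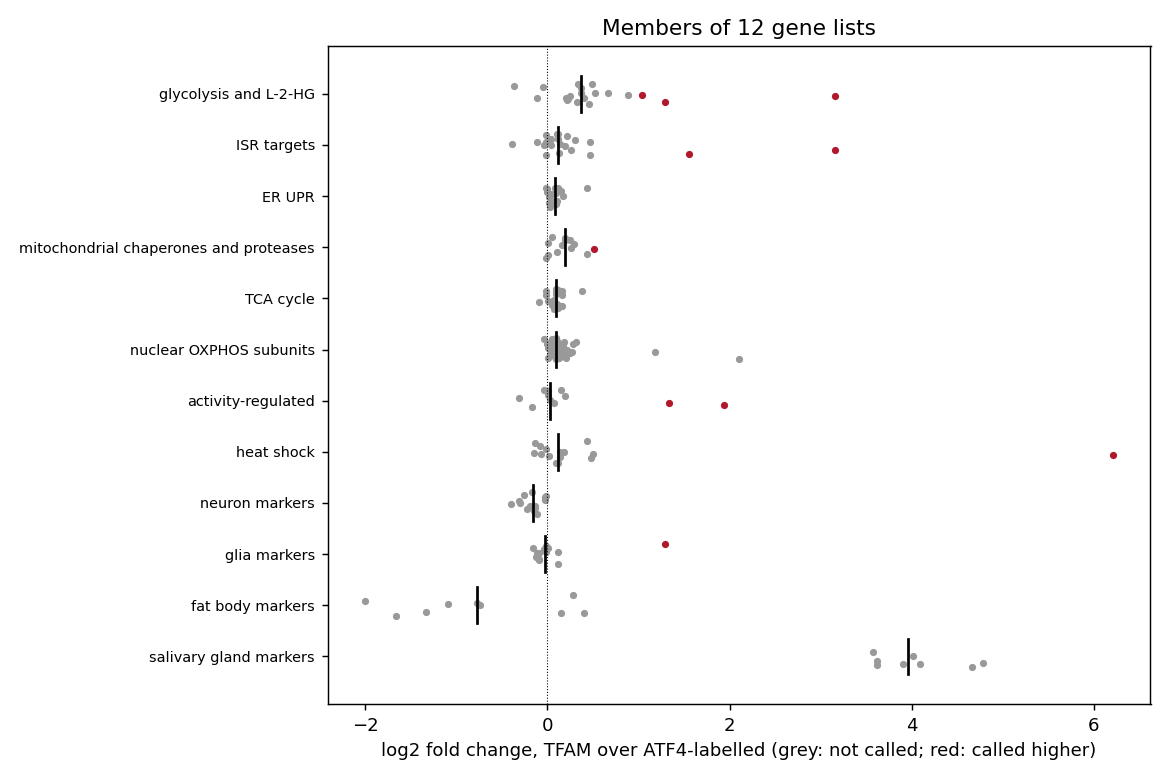
Log2 fold change (TFAM over ATF4-labelled) of each tested member of 12 gene lists, one row per list, with the list median as a black bar. Called members, in red, are few in each list, and the 8 salivary gland markers, none of them called, lie between 3.57 and 4.78.

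Arc1 and Arc2 encode capsid-forming proteins derived from a retrotransposon, and Arc1 RNA passes from neuron to muscle at the larval neuromuscular junction. Both were higher in TFAM overexpression, 2 of 11 tested activity-regulated genes (18.2%, against 1.41% of all genes tested). Arc1 stood at 286, 217, 230 and 308 CPM in the TFAM libraries, against 79.6, 65.7, 64.4 and 58.7 CPM in the ATF4-labelled libraries. Arc2, whose gene lies 1627 bp from Arc1, stood at 10.8, 13.0, 9.93 and 10.4 CPM in the TFAM libraries, against 4.40, 4.31, 3.72 and 4.91 CPM in the ATF4-labelled libraries. Neither pair of groups overlapped, and the log2 fold changes were 1.94 for Arc1 (SE 0.14, edgeR adjusted p = 8.14e-05) and 1.34 for Arc2 (SE 0.14, adjusted p = 0.000941). The list's median was 0.03, and the immediate-early genes Hr38 (0.03) and sr (-0.31) did not pass. Control libraries had 85.4 to 110 CPM of Arc1 on the 16-library scale, on which the means were 258 CPM in TFAM libraries and 66.5 CPM in ATF4-labelled libraries.

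A set of genes was near 0 in one genotype and higher in the other, many of them at a low level there too. In 7 of the genes called higher every ATF4-labelled library had at most 3 counts, and in 5 of those called lower every TFAM library did. Hsc70-2, described next, is outside that limit, with up to 7 counts in an ATF4-labelled library. Hsc70-2 (FBgn0001217, chr3R:13044759-13047388), a member of the Hsp70 chaperone family, stood at 13.1, 18.2, 18.2 and 22.3 CPM in the TFAM libraries, against 0.0855, 0.290, 0.303 and 0.263 CPM in the ATF4-labelled libraries. The ratio of its summed counts, 1646 to 22, was 76.3 after scaling, with an exact 95% counting interval of 50.2 to 122 that does not cover spread between pools. CG31157 (chr3R:13047731-13049294), 343 bp from Hsc70-2, stood at 3.58, 4.64, 4.27 and 5.34 CPM in the TFAM libraries, against 0.0855, 0.0414, 0.0433 and 0.0439 CPM in the ATF4-labelled libraries. In both genes the lowest TFAM library was far above the highest ATF4-labelled one, with log2 fold changes of 6.21 (SE 0.29) and 6.23 (SE 0.30) and an edgeR adjusted p of 6.37e-06 for each. The next gene along, CG7966, was also called higher, at 0.80 (edgeR adjusted p = 0.0384), a call kept in 2 of the 8 fits that left out a library. No other of the 15 tested heat shock genes was called, and their median was 0.12, with Hsp26 at 0.50 (adjusted p = 0.073) and Hsp70Bb at 0.48 (adjusted p = 0.609).

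Cyp6t3, a cytochrome P450 that in the prothoracic gland takes part in ecdysone synthesis, stood at 17.4, 12, 15.2 and 15.7 CPM in the TFAM libraries, against 0.983, 0.787, 0.217 and 0.878 CPM in the ATF4-labelled libraries. It was higher by 4.37 on the log2 scale (SE 0.32, edgeR adjusted p = 8.14e-05), while none of 20 tested ecdysone response genes was called (median -0.10). Cyp4p2 went the other way, at 0.611, 0.449, 0.279 and 0.297 CPM in the TFAM libraries, against 29.2, 28.3, 26.2 and 26.3 CPM in the ATF4-labelled libraries. Its neighbour Cyp4p1, 210 bp away, stood at 0.306, 0.0998, 0.199 and 0.170 CPM in the TFAM libraries, against 8.42, 5.47, 7.19 and 5.48 CPM in the ATF4-labelled libraries. These 2 cytochrome P450 genes, near-neighbours of 1 family between which reads could be split, were lower by -6.08 (SE 0.20, edgeR adjusted p = 4.27e-07) and -5.06 (SE 0.30, adjusted p = 2.3e-05) on the log2 scale. On the 16-library scale control libraries averaged 0.352 CPM of Cyp4p2 and 0.812 CPM of Cyp6t3, near the TFAM mean of 0.406 CPM for the first and near the ATF4-labelled mean of 0.711 CPM for the second. Of 42 tested genes of the P450 list, 2 were called higher and 2 lower (9.52%, against 1.41% of all genes tested). Cyp9f3 was the other one called higher, at 0.50 (edgeR adjusted p = 0.027), a call kept in 2 of the 8 fits that left out a library. The list was matched by symbol, so the 42 also include Cyp1 and Cyp40, which are cyclophilin genes and were not called.

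**Figure D4:**
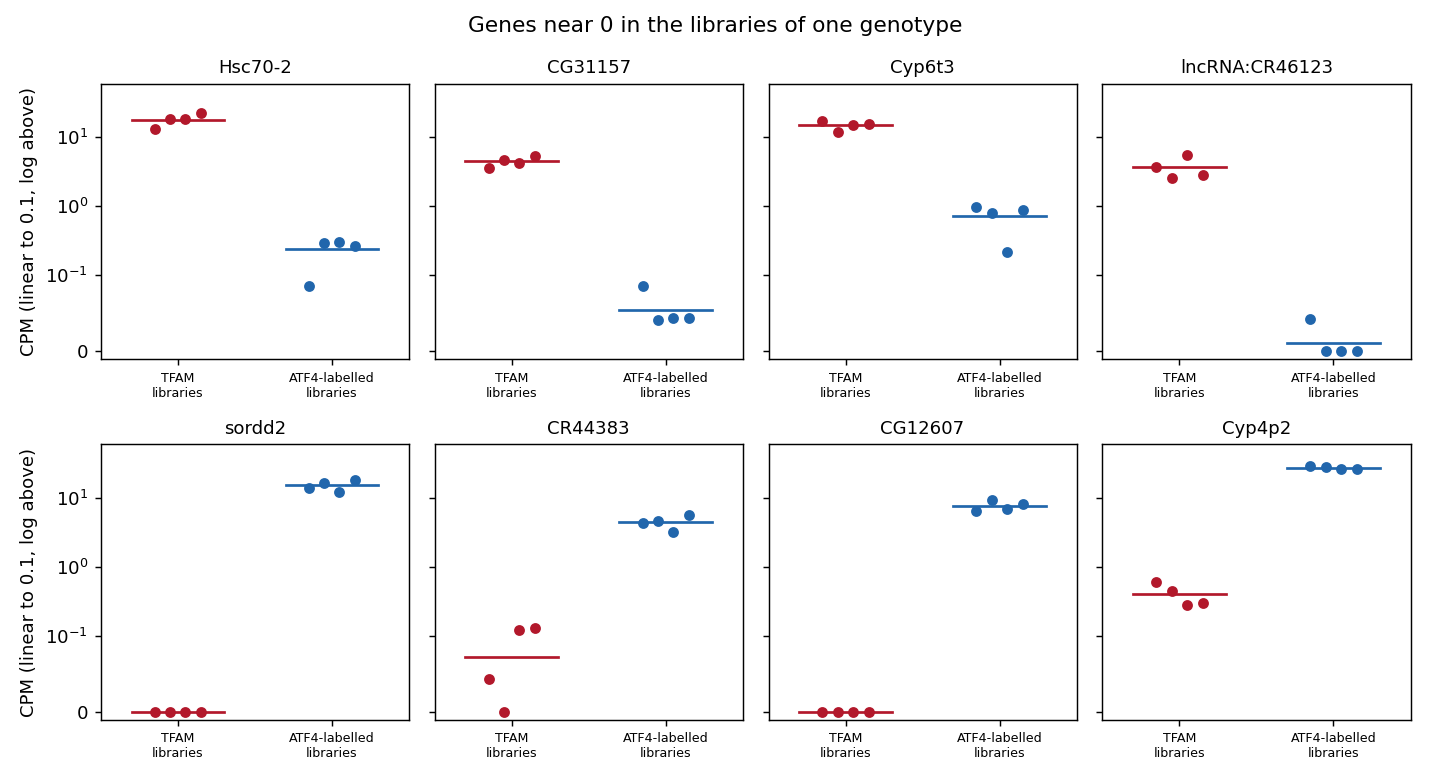
CPM of 8 genes in the 4 TFAM libraries (red, left) and the 4 ATF4-labelled libraries (blue, right), with the mean as a bar, on an axis that is linear up to 0.1 and logarithmic above. Hsc70-2, CG31157, Cyp6t3 and lncRNA:CR46123 are high in TFAM libraries, and sordd2, CR44383, CG12607 and Cyp4p2 are high in ATF4-labelled libraries.

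Genes with no count at all in the TFAM libraries were sordd2 (FBgn0052581, chrX:15796908-15799162, minus strand) and CG12607 (FBgn0035545, chr3L:4446573-4448072, plus strand). The 4 TFAM libraries summed to 0 counts of sordd2, against 13.9, 16.6, 12.2 and 18.1 CPM in the ATF4-labelled libraries, a total of 1418 counts. With a floor of 3 counts over the 4 TFAM libraries, sordd2 was at least 464-fold lower in TFAM overexpression. CG12607 also summed to 0 counts in the TFAM libraries, against 6.54, 9.28, 6.84 and 8.16 CPM in the ATF4-labelled libraries, and was at least 236-fold lower by the same floor. Control libraries summed to 0 counts of both genes. The libraries with TFAM overexpression and ATF4 RNAi summed to 1366 counts of sordd2 and 0 of CG12607, so a high level of sordd2 was not particular to the ATF4-labelled libraries. The noncoding gene CR44383 lies 11 bp from sordd2 on the other strand and moved with it, at 0.0436, 0, 0.120 and 0.127 CPM in the TFAM libraries, against 4.36, 4.60, 3.25 and 5.70 CPM in the ATF4-labelled libraries (log2 fold change -5.79, SE 0.43, edgeR adjusted p = 8.14e-05).

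Other genes of this kind were weakly expressed. lncRNA:CR46123 was counted 343 times in the TFAM libraries and 1 time in the ATF4-labelled libraries, CG11634 135 times and 1 time, and Gr58c, a gustatory receptor gene, 85 times and 1 time. The scaled ratios of these counts were 350 (exact 95% counting interval 62.4 to 13900), 138 (24.3 to 5480) and 86.7 (15.1 to 3460). In the other direction Toll-4, of the Toll receptor family, was counted 1 time in the TFAM libraries and 65 times in the ATF4-labelled libraries, Crg-1, a forkhead transcription factor gene, 4 times and 204 times, and CG30002 4 times and 162 times. Crg-1 overlaps transposon sequence and lncRNA:CR44117, and CG30002 overlaps transposon sequence. Further genes much higher in TFAM than in ATF4-labelled libraries were lncRNA:CR44138 (5.44), CG13566 (5.26), CG34109 (4.86), CR43671 (4.00) and CG15731 (3.56). Those much lower were CG31220 (-3.67, overlapping transposon sequence), Cpr49Ae (-2.80) and Parp16 (-2.70), all on the log2 scale and all called. Control libraries averaged 0.927 CPM of CR43671 on the 16-library scale, where the TFAM mean was 0.929 CPM and the ATF4-labelled mean 0.0536 CPM. For lncRNA:CR44138, CG13566, CG34109 and CG15731 the control mean was at most 0.163 CPM. CG31220, Cpr49Ae and Parp16 had control means of 0.0558, 0.227 and 0.0409 CPM and TFAM means of 0.0624, 0.252 and 0.114 CPM. Their ATF4-labelled means were 0.879, 1.75 and 0.733 CPM. Parp16 kept its call in 2 of the 8 fits that left out a library.

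More abundant genes that were higher in TFAM overexpression included GILT3, CG15784 and thw. GILT3 (chr3R:23677358-23678421), of the family of lysosomal thiol reductases, stood at 15.8, 23.4, 18.8 and 15.1 CPM in the TFAM libraries, against 1.71, 1.82, 1.65 and 1.54 CPM in the ATF4-labelled libraries. The ATF4-labelled libraries were low and close together, with a log2 fold change of 3.43 (SE 0.17, edgeR adjusted p = 7.57e-06), whereas control libraries had 17.1 to 29.8 CPM on the 16-library scale, which covers the TFAM mean of 18.2 CPM. CG15784 (chrX:5429571-5432526) stood at 109, 89.2, 90.5 and 117 CPM in the TFAM libraries, against 20.6, 12.6, 21.5 and 9.70 CPM in the ATF4-labelled libraries. It was higher in all 4 TFAM libraries, by 2.64 (SE 0.24, edgeR adjusted p = 0.000378), and control libraries had 13.2 to 24.3 CPM, with a TFAM mean of 100 CPM and an ATF4-labelled mean of 15.9 CPM on the 16-library scale. The gene thw, which encodes a zona pellucida domain protein, stood at 22.4, 15.7, 13.0 and 14.5 CPM in the TFAM libraries, against 3.12, 3.48, 2.47 and 2.11 CPM in the ATF4-labelled libraries (log2 fold change 2.54, SE 0.22, edgeR adjusted p = 0.000226).

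Genes above 10 CPM that were lower in TFAM overexpression had smaller differences, Cyp4p2 and sordd2 apart. Rgk2 belongs to a family of small GTPases that in mammals restrain voltage-gated calcium channels. It stood at 27.1, 25.9, 30.9 and 32.2 CPM in the TFAM libraries, against 61.8, 50.7, 57.6 and 62.0 CPM in the ATF4-labelled libraries. All 4 TFAM libraries were below all 4 ATF4-labelled libraries, with a log2 fold change of -1.01 (SE 0.10, edgeR adjusted p = 0.000757), and the means on the 16-library scale, 28.8 CPM in TFAM libraries and 57.5 CPM in ATF4-labelled libraries, were both above the control libraries at 14.5 to 18.8 CPM. ETHR, the receptor of the hormone that triggers ecdysis, stood at 7.86, 5.54, 9.97 and 10.3 CPM in the TFAM libraries, against 19.6, 15.4, 17.8 and 17.7 CPM in the ATF4-labelled libraries. Its log2 fold change was -1.07 (SE 0.19, edgeR adjusted p = 0.0227), and it kept the call in 4 of the 8 fits that left out a library. Control libraries had 4.76 to 9.8 CPM of ETHR on the 16-library scale, which covers the TFAM mean of 8.34 CPM. CG7720 (-1.81), CG6912 (-1.43, overlapping asRNA:CR45600), hng3 (-1.29) and Pcyt2 (-0.90, an enzyme of phosphatidylethanolamine synthesis that overlaps Pcyt1) were the other abundant genes lowest in TFAM relative to ATF4-labelled libraries, on the log2 scale and all called. On the 16-library scale CG7720 and hng3 averaged 2.11 and 17.2 CPM in control libraries. Their TFAM means were 3.29 and 14.2 CPM and their ATF4-labelled means 11.4 and 34.3 CPM. CG6912 and Pcyt2 averaged 19.3 and 16.6 CPM in control libraries. Their TFAM means were 8.68 and 9.25 CPM and their ATF4-labelled means 23.2 and 17.1 CPM.

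SkpB, of the Skp family of ubiquitin ligase adaptors, differed steadily across pools, although at a low level. It stood at 0.480, 0.449, 0.439 and 0.551 CPM in the TFAM libraries, against 4.32, 4.27, 4.33 and 4.87 CPM in the ATF4-labelled libraries. Both groups were narrow, and the log2 fold change was -3.21 (SE 0.18, edgeR adjusted p = 1.67e-05). SkpB, CG13566, Cyp6t3, Gcn2, Nfs1, Fdx1 and Ir76a each overlap a gene on the other strand, from which reads cannot be told apart if the counting ignored strand. The study reports that reads were counted with default settings and does not name the strand setting.

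Genes for channels, transporters and receptors were also among those called, named here after their values were seen. ClC-a, a chloride channel, averaged 69.9 ± 5.02 CPM in TFAM libraries and 118 ± 7.94 CPM in ATF4-labelled libraries (SD, n = 4 each). DAT, the dopamine transporter, averaged 10.3 ± 1.28 and 16.4 ± 0.95 CPM, GluRIIA, a subunit of the glutamate receptor of the neuromuscular junction, 1.27 ± 0.125 and 3.28 ± 1.02 CPM, and Indy, a citrate transporter, 70.5 ± 3.45 and 91.9 ± 4.05 CPM, in TFAM and ATF4-labelled libraries in that order. All 4 were called lower in TFAM than in ATF4-labelled libraries, by -0.77, -0.68, -1.37 and -0.39 on the log2 scale, with edgeR adjusted p values of 0.00124, 0.0192, 0.0239 and 0.0229. On the 16-library scale their control means were 66.4, 12, 1.56 and 58.2 CPM. The TFAM means were 69.3, 10.2, 1.26 and 69.9 CPM on that scale, and the ATF4-labelled means 117, 16.3, 3.25 and 91.1 CPM. Ir76a, an ionotropic receptor, was higher, at 15.4 ± 3.49 CPM in TFAM libraries and 4.41 ± 0.988 CPM in ATF4-labelled libraries (SD, n = 4 each; log2 fold change 1.79, edgeR adjusted p = 0.00193). Another, Ir51a, was lower, at 2.40 ± 0.822 CPM in TFAM libraries and 5.94 ± 0.785 CPM in ATF4-labelled libraries (SD, n = 4 each; log2 fold change -1.31, edgeR adjusted p = 0.0296). The transporter genes rtet (1.09, edgeR adjusted p = 0.00124) and MFS3 (0.79, adjusted p = 0.0468, overlapping lncRNA:CR45717) were higher. ClC-a, rtet and Ir76a were called in all 8 fits that left out a library, DAT and GluRIIA in 3 of them and Indy, Ir51a and MFS3 in 2. GluRIIA overlaps CG14017 on the same strand.

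Of the 133 called genes, 19 lay within 10000 bp of another called gene (14.3%), against 5.84% of all genes tested. All of these neighbours changed in the same direction as each other, namely Cyp4p1 with Cyp4p2, Arc1 with Arc2, CG13566 with Fmo-1, sturkopf with Herc4, CG6654 with CG4210, CG10472 with CG6602, CR43671 with ChLD3, CR44383 with sordd2, and Hsc70-2, CG31157 and CG7966 together. Called genes made up 1.96% of those tested on arm 2R and 0.886% of those tested on the X chromosome, the highest and lowest shares of the chromosome arms. Among noncoding RNA genes 9 of 332 were called (2.71%), against 1.41% of all genes tested. These shares were not tested.

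Markers of cell types differed little, and none of the markers of neurons (14 tested) or neuroblasts (10 tested) was called. The neuronal markers were all slightly negative, between -0.40 and -0.02, with a median of -0.16, and brp, an active zone protein, at 373 CPM in TFAM libraries and 490 CPM in ATF4-labelled libraries, was the lowest (edgeR adjusted p = 0.739). Of 34 neuropeptide genes none was called (median 0.10), with Proc at 0.65 (adjusted p = 0.134) and Ilp2 at 0.72 (adjusted p = 0.311).

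Tissues that can adhere to a dissected CNS varied between pools. The 8 tested salivary gland markers had a median log2 fold change of 3.96 and none was called. The summed level of all 13 genes of that list, untested ones included, was 29.9, 0.899, 262 and 96.8 CPM in TFAM libraries. In ATF4-labelled libraries it was 3.08, 0.704, 15.6 and 6.98 CPM. TFAM replicate 3 was highest, the groups overlapped, and libraries within each genotype differed widely. Each TFAM library was above the ATF4-labelled library of the same number, though the numbers paired the libraries only in part. Larval serum protein genes, made in the fat body, leaned the other way, with Lsp1alpha at -1.66 (edgeR adjusted p = 0.35) and Lsp1beta at -1.33 (adjusted p = 0.0892). The 9 fat body markers had a median of -0.77 and none was called. No marker was called for muscle (14 tested, median 0.05), hemocytes (11 tested, median -0.28), ring gland (6 tested, median 0.35) or eye disc (11 tested, median -0.07). The cuticle gene Lcp3 was the 1 called of 12 cuticle and tracheal markers, at 2.35 ± 0.508 CPM in TFAM libraries and 7.53 ± 3.60 CPM in ATF4-labelled libraries (SD, n = 4 each; log2 fold change -1.69, edgeR adjusted p = 0.0306), and kept its call in 3 of the 8 fits that left out a library but not in a fit of all 4 genotypes (adjusted p = 0.616). The part of carried-over tissue in the called genes was not tested.

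Other lists were without calls, and their medians are in brackets. They were 84 genes with symbols of cytosolic ribosomal proteins, RpLP0-like and RpL24-like included (0.09), 33 proteasome subunits (0.03) and 17 antioxidant genes (0.12). Also without calls were 7 circadian genes (0.01), 4 antimicrobial peptide genes (-0.28), 7 genes of male dosage compensation (0.00) and 5 pigment and transgene marker genes (-0.04). GstO3, of the omega class of glutathione S-transferases, was the 1 called of 25 in its family, at 33.9 ± 6.08 CPM in TFAM libraries and 21.4 ± 0.763 CPM in ATF4-labelled libraries (SD, n = 4 each; log2 fold change 0.65, edgeR adjusted p = 0.0285), and kept its call in 2 of the 8 fits that left out a library.

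For the lists with 0 genes called by edgeR, the number of members at an unadjusted p under 0.05 is given here beside the 7.74% over all genes tested. It was 8 of 8 for salivary gland, 5 of 9 for fat body, 2 of 4 for antimicrobial peptides, 4 of 17 for antioxidant genes, 6 of 32 for aminoacyl-tRNA synthetases, 1 of 5 for pigment genes and 5 of 34 for neuropeptides. It was 1 of 14 for muscle, 1 of 20 for ecdysone response, 1 of 21 for the TCA cycle, 1 of 23 for the UPR, 2 of 62 for oxidative phosphorylation subunits, 1 of 71 for mitochondrial ribosomal proteins and 0 for the remaining ones. DESeq2 without a prior called 2 antioxidant and 2 fat body genes, and 1 each of the UPR, TCA cycle, synthetase, neuropeptide, oxidative phosphorylation, mitochondrial ribosomal, pigment and salivary gland lists.

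**Figure D5:**
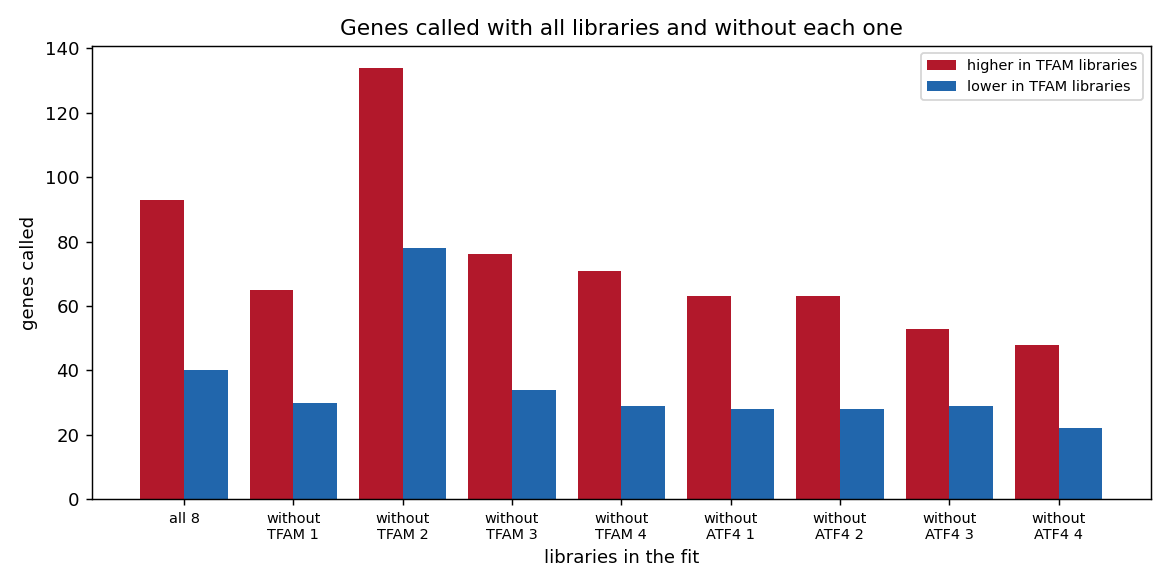
Number of genes called higher (red) and lower (blue) in TFAM libraries with all 8 libraries and without each one in turn. The counts are 93 and 40 with all libraries, highest without TFAM replicate 2 at 134 and 78, and lowest without ATF4-labelled replicate 4 at 48 and 22.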

How the data were processed

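PolyA RNA of larval CNS was sequenced as 75-bp single-end reads. The authors mapped reads to dm6 with Bowtie2 2.3.4.2 and counted them per gene with featureCounts 1.6.3 (versions from the submitters' processing notes). They report default settings for both, and name neither the annotation nor the strand setting. The deposited values are raw counts for 17698 genes, not normalized by the authors. Symbols and coordinates came from the BDGP6 annotation (17560 genes matched).

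Libraries were grouped by their titles. Genes were filtered with filterByExpr, scaled by TMM and tested with edgeR 4.0.16 (R 4.3.3), by its quasi-likelihood test over the 8 libraries with Benjamini-Hochberg adjustment, after the scripts were tested on simulated data. The SE of a log2 fold change is its size over the root of the F statistic. Libraries of 1 genotype were further apart than counting noise allows (chi-square per degree of freedom 9.29 to 164.6). Single values could reach an exact permutation p of 0.0286 at the lowest. Intervals and floors cover counting error.

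Named genes were TFAM and crc, the 12 called genes with the largest rise and the 12 with the largest fall, the 8 of each among called genes with at least 10 CPM in either genotype, up to 4 called members of each of 32 gene lists, and Ldh, Tret1-1, PEK, Gcn2, Xbp1, Thor, Arc1 and AsnS; others are named as chosen after their values were seen, or as uncalled examples of a list. Another gene of the rule is not reported here. The comparison, the members and the lists were chosen with earlier results of these data known. The alternatives run were the Wald test of DESeq2 1.42.0 (without a prior and with it), its size factors in edgeR, other filters and thresholds, the exon length slope, a replicate block, a fit of all 4 genotypes, and leaving out each library.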

Additional observations from a re-analysis of the deposited data

Results flagged for a closer look

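Of 100 groups of 4 libraries, 9 held a library far from its 3 companions by Dixon's test, where chance flags about 1 in 20. The 100 include the TFAM groups of sordd2 and CG12607, which had 0 counts throughout and could not be tested. In 5 of the 9 the value was 1 count against none or 2 counts against 1. These were lncRNA:CR46123 at 0.0428 CPM in ATF4-labelled replicate 1, CG11634 at 0.0439 CPM in ATF4-labelled replicate 4, CG31157 at 0.0855 CPM in ATF4-labelled replicate 1, Gr58c at 0.0433 CPM in ATF4-labelled replicate 3 and Toll-4 at 0.0424 CPM in TFAM replicate 4. CG30002 had all 4 of its TFAM counts in TFAM replicate 1, at 0.175 CPM. SkpB was at 4.87 CPM in ATF4-labelled replicate 4, against 4.27 to 4.33 CPM in the other ATF4-labelled libraries.

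The other 2 concerned TFAM replicate 2. Xbp1 was at 621 CPM there, against 393 to 420 CPM in the other TFAM libraries, and the slope of expression on exon length was -0.254, against 0.024 to 0.081.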

How the results depend on the processing

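All 133 called genes kept their sign in every fit, and 73 were called in all 12 other settings. TFAM was called and crc was not in every fit. Against 133 genes called (93 higher and 40 lower in TFAM overexpression, with 15 genes of the lists), DESeq2 called 271 without a prior (184 higher, 87 lower, 36 of the lists) and 251 with it (171 higher, 80 lower, 33 of the lists), in each case including all 133. The exon length slope as a covariate gave 329 (205 higher, 124 lower, 48 of the lists); the cause was not tested. Size factors from DESeq2, no filter, other fold thresholds, glmTreat, an FPKM minimum of 1 and a fit of all 4 genotypes gave 92 to 156. Leaving out 1 library gave 70 to 212 genes, 48 to 134 higher, 22 to 78 lower and 10 to 26 of the lists. Gcn2, which was never called, changed sign to 0.00 without a filter, to 0.04 with the slope and within a range of -0.06 to 0.09 when 1 library was left out. Xbp1 ranged from -0.01 to 0.24 and AsnS from -0.06 to 0.01 when 1 library was left out, neither called. Counts were too low for folds to be precise in genes with 1 to 7 counts in a genotype.

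Replicate numbers paired the libraries only in part. Deviations from the genotype mean correlated at 0.502, 0.582, 0.183 and -0.41 between same-numbered libraries, and 3 of the 4 TFAM libraries correlated best with their own number. The fit behind the 133 calls had no replicate term. With a replicate block 164 genes were called (115 higher, 49 lower, 28 of the lists, 7 of these salivary gland markers), and with the block and the slope 300 (189 higher, 111 lower, 55 of the lists; Gcn2 0.06).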
